A study of Mus musculus with 4 samples.

Results

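The Lhx, Nkx, Pax, Dlx and Irx genes and those of the sine oculis family (symbols such as Six2) encode homeobox and paired-domain transcription factors that pattern embryonic tissues. They were chosen by symbol as all RefSeq protein-coding genes whose symbols start with the stem of 1 of these 6 families followed by a digit. Lhx8, Irx3 and Six6os1 were left out, so that 47 of 21887 genes remained. The set holds 14 Nkx, 9 Pax, 7 Lhx, 6 Dlx and 5 Irx genes and 6 genes of the sine oculis family.

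The homeodomain is a DNA-binding fold that homeobox proteins share. Pax proteins bind DNA through a paired domain and Lhx proteins carry LIM domains for cofactors, whereas proteins of the sine oculis family work with Eya coactivators and Dach corepressors. These genes direct the regional identity of brain, eye, kidney, muscle, gut and limb, and most are known for roles in somatic tissues rather than in germ cells. SWI/SNF is a chromatin remodelling complex that moves or evicts nucleosomes, and Snf5, encoded by Smarcb1, is one of its core subunits.

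Chromatin accessibility was measured by ATAC-seq, in which a transposase cuts and tags open DNA, in female C57BL/6 mouse embryos at embryonic day 15.5. Germ cells were sorted by an Oct4-EGFP reporter in both groups. The labels give 2 libraries with genotype Control and 2 with genotype Snf5 CKO. They do not give the Cre driver, the deleted exons or the control alleles, nor whether the libraries of a group are from different animals. Differences between libraries of one group may therefore be technical.

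The lists held 39465 and 36730 peaks in the controls and 45422 and 28625 peaks in Snf5 CKO, over 27.4, 25.2, 24.3 and 16.9 Mb. Read depth is unknown, and the second Snf5 CKO library had the shortest list. Smarcb1 gene-end peaks measured 929 and 1139 bp in the controls and were listed at 0 in Snf5 CKO. The deleted part of the gene is not given, so this does not test the deletion itself. The 10 germ cell marker genes were open at a gene end in 10, 9, 9 and 9 cases across the 4 libraries in the order above. Values given as a run of 4 below follow that order, Control 1, Control 2, Snf5 CKO 1 and Snf5 CKO 2.

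Promoters of 6 members are shown, since their start sites cover the outcomes described next. The start sites of Nkx1-1 and Pax7 and the printed start site of Pax2 lay under a peak in both controls and in neither Snf5 CKO library. Pax2 has 3 RefSeq start sites, and the one printed is not the most upstream, whose promoter holds 7 CG dinucleotides. Those of Nkx3-2 and Six6 lay under a peak in all 4 libraries, and that of Six5 lay under none. Each sequence runs from 250 bases before to 50 bases after a RefSeq start site of GRCm38.p6, the assembly behind mm10, on the coding strand from 5′ to 3′. CG dinucleotides are in capitals. The windows are chr5:33434041-33434340 (minus strand) for Nkx1-1, chr19:44756656-44756955 (plus) for Pax2 and chr4:139832919-139833218 (minus) for Pax7. The others are chr5:41764171-41764470 (minus) for Nkx3-2, chr12:72939632-72939931 (plus) for Six6 and chr7:19094294-19094593 (plus) for Six5.
Nkx1-1: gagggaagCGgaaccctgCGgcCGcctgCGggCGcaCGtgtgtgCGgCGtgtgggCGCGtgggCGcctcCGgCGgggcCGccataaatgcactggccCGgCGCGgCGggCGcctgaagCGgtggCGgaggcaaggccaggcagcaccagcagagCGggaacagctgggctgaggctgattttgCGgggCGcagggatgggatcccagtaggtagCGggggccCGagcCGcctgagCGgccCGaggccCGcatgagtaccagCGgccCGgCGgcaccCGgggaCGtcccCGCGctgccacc
Pax2: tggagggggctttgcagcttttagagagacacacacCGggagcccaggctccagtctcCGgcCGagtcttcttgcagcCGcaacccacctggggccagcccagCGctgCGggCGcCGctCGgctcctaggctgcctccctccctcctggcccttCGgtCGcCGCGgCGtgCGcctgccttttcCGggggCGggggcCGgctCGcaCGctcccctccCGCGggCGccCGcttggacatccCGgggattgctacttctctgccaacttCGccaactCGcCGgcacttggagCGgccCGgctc
Pax7: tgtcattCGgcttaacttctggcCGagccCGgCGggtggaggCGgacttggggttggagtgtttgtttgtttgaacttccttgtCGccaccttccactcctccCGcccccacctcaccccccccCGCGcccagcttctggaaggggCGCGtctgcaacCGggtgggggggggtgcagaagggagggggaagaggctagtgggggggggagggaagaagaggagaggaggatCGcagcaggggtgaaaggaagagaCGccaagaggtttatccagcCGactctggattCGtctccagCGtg
Nkx3-2: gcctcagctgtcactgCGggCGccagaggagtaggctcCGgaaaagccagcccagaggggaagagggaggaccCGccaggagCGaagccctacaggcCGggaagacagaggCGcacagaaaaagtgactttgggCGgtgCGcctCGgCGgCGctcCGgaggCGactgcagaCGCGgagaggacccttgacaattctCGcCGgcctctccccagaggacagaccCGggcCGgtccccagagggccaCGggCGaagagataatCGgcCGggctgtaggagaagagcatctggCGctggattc
Six6: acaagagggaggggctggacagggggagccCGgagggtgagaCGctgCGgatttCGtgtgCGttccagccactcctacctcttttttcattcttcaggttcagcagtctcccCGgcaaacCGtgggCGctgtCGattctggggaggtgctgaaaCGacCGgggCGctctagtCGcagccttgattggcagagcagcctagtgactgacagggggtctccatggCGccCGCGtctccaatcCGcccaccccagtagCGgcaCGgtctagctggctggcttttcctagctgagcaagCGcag
Six5: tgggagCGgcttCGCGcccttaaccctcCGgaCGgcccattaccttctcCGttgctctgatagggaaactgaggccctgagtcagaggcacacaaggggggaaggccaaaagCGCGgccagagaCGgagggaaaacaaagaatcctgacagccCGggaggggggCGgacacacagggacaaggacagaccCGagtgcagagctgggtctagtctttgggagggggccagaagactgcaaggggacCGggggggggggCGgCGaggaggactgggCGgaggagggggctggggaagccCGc

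The printed promoters hold 37, 30, 17, 25, 20 and 17 CG dinucleotides in that order, so those whose peak was lost are not separated from those whose peak was kept by CG number. The RefSeq promoter table had an entry for 33 of the 47 members. At the most upstream start site of each, the median was 18 CG dinucleotides per promoter, against 13 over 17492 genes. The motif GGGCGG, a GC box searched on both strands, was in 24 of 33 member promoters (72.7%, against 46.3% of all promoters). TATAAA, searched on both strands, was in 1 member promoter (3.03% against 13.3%), CCAAT on both strands in 48.5% against 39.2%, and TAATTA, a palindromic homeodomain core, in none against 4.69%. GGGCGG holds a CG itself, and none of the 4 motifs contains another. A match is a description of the sequence only.

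Over all loci, defined as each gene with 10 kb on either side and counted once where they overlap (within the pairs Dlx1 and Dlx2, Dlx3 and Dlx4, and Dlx5 and Dlx6, and 1 Nkx pair), member chromatin was less covered by peaks in Snf5 CKO. The 43 separate loci span 1860 kb. Peaks covered 93.5 kb in Control 1, 81.4 kb in Control 2, 48.8 kb in Snf5 CKO 1 and 37.3 kb in Snf5 CKO 2. Both Snf5 CKO libraries lay below both controls and the groups did not overlap. The means were 87.4 ± 8.62 kb (SD, n = 2) and 43.1 ± 8.17 kb (SD, n = 2), so that covered length in Snf5 CKO was 49.2% of control. The exact two-sided permutation test gave p = 0.33, the smallest value that 2 against 2 libraries allow.

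The number of peaks in these loci was 138 and 130 in the controls and 92 and 69 in Snf5 CKO. Snf5 CKO 1 had fewer peaks there than either control although its whole list was the longest of all. The loci took 0.341% and 0.323% of all covered bases in the controls and 0.201% and 0.22% in Snf5 CKO. Relative to each library's own covered length the groups also stood apart, with means of 0.332% ± 0.0127 and 0.211% ± 0.0134 (SD, n = 2 each; exact permutation p = 0.33).

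**Figure D1:**
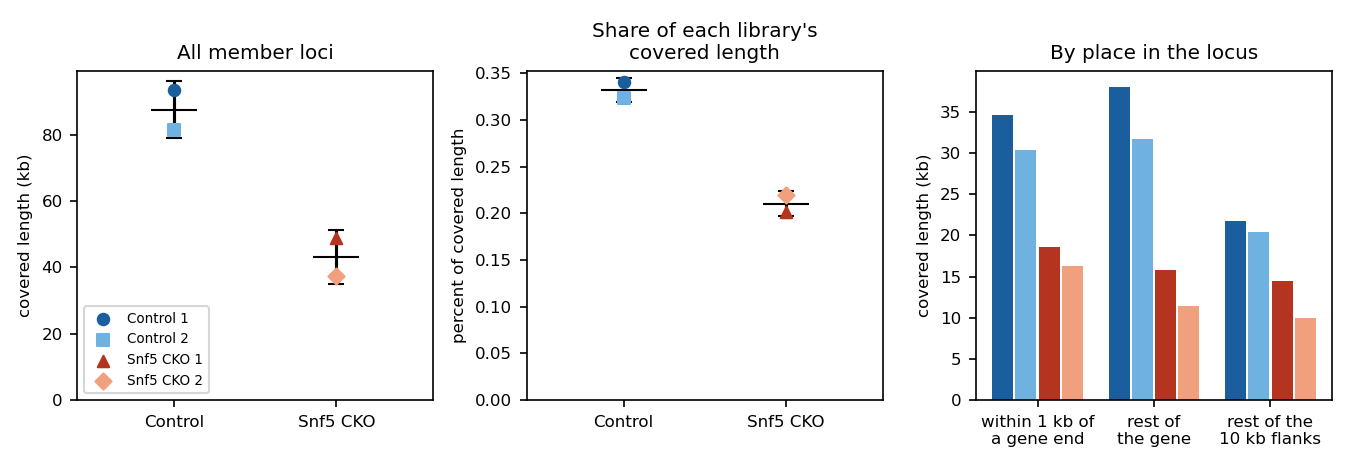
Covered length of peaks in the loci of the 47 members (left, kb), its share of all covered bases in each library (middle, percent), and covered length by place in the locus (right, kb). Lengths on the right are summed over genes, so overlapping loci count more than once there. Points and bars are single libraries and black marks are the group mean ± SD of 2 libraries; both Snf5 CKO libraries lie below both controls in each panel.

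The reduction was seen in each place of the locus. By place, lengths were summed over genes, so bases shared by overlapping loci counted once for each gene. Within 1 kb of a gene end, peaks covered 34603 and 30349 bp in the controls and 18539 and 16338 bp in Snf5 CKO, 53.7% of control against 72.1% over all genes. In the rest of the gene they covered 38033, 31664, 15834 and 11405 bp, 39.1% of control against 67.1% over all genes. In the rest of the flanks they covered 21742, 20394, 14459 and 9931 bp, 57.9% of control against 72.3%. The groups did not overlap in any of the 3 places, each with an exact permutation p of 0.33. Among these places the gene body had the lowest remaining share for the members.

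Locus by locus, 46 of the 47 members had a peak in both controls and Pax4, a gene of pancreatic endocrine development, had none in any library. Covered bases were lower in both Snf5 CKO libraries than in both controls at 41 of the 46 loci (89.1%), where the background over all genes was 68.3% of 16495 loci. They were higher at 1 locus, Dlx4, against a background of 2.9%, and the groups overlapped at the other 4, which were Irx6, Lhx3, Nkx2-1 and Six2. With 100 bp added to each group mean, the log2 ratio of Snf5 CKO to control had a median of -0.95 for members and -0.46 for all genes.

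Members also had weaker control peaks than most genes. The highest fold enrichment in the locus, the authors' value for each peak, had a control median of 3.44 for members and 4.84 for all genes. Among loci whose mean control fold was under 4, 28 of 33 member loci were lower in Snf5 CKO (84.8%, background 69.7%), with a median log2 ratio of -1.01 against -0.66. Among loci with at least 1500 bp covered in controls, 28 of 29 member loci were lower (96.6%, background 76.4%), with medians of -0.90 and -0.51. The share of lower loci did not stand above the background in stricter lists. With only peaks of −log10 q of at least 3, it was 21 of 36 member loci (58.3%) against 70.5% of all loci, and with all lists cut to the length of the shortest it was 25 of 40 (62.5%) against 70.8%. The member medians in those lists were -0.85 and -0.83, and those of all genes -0.44 and -0.42.

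**Figure D2:**
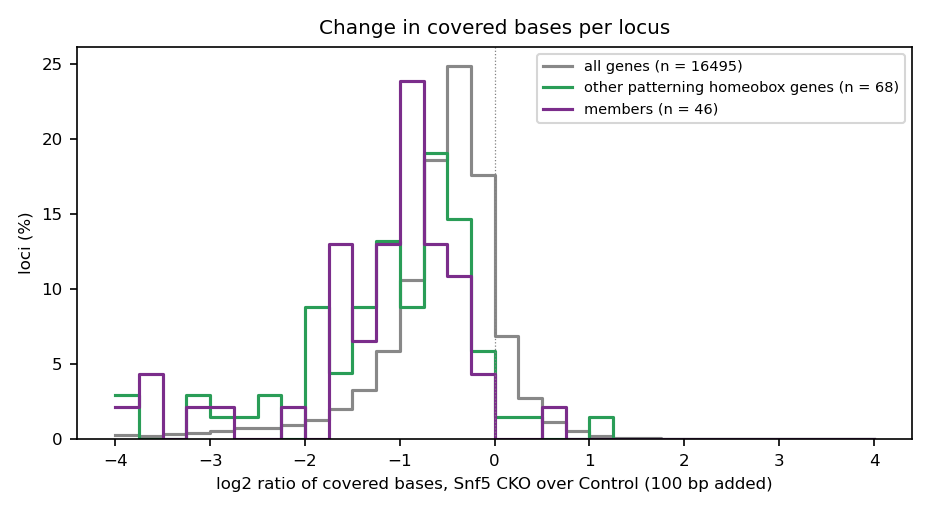
Distribution of the log2 ratio of mean covered bases, Snf5 CKO over control with 100 bp added, in bins of 0.25, for member loci, loci of other patterning homeobox genes and loci of all genes with a peak in both controls (y axis, percent of loci; ratios below -4 are drawn in the lowest bin). The member median of -0.95 lies left of the all-gene median of -0.46.

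**Figure D3:**
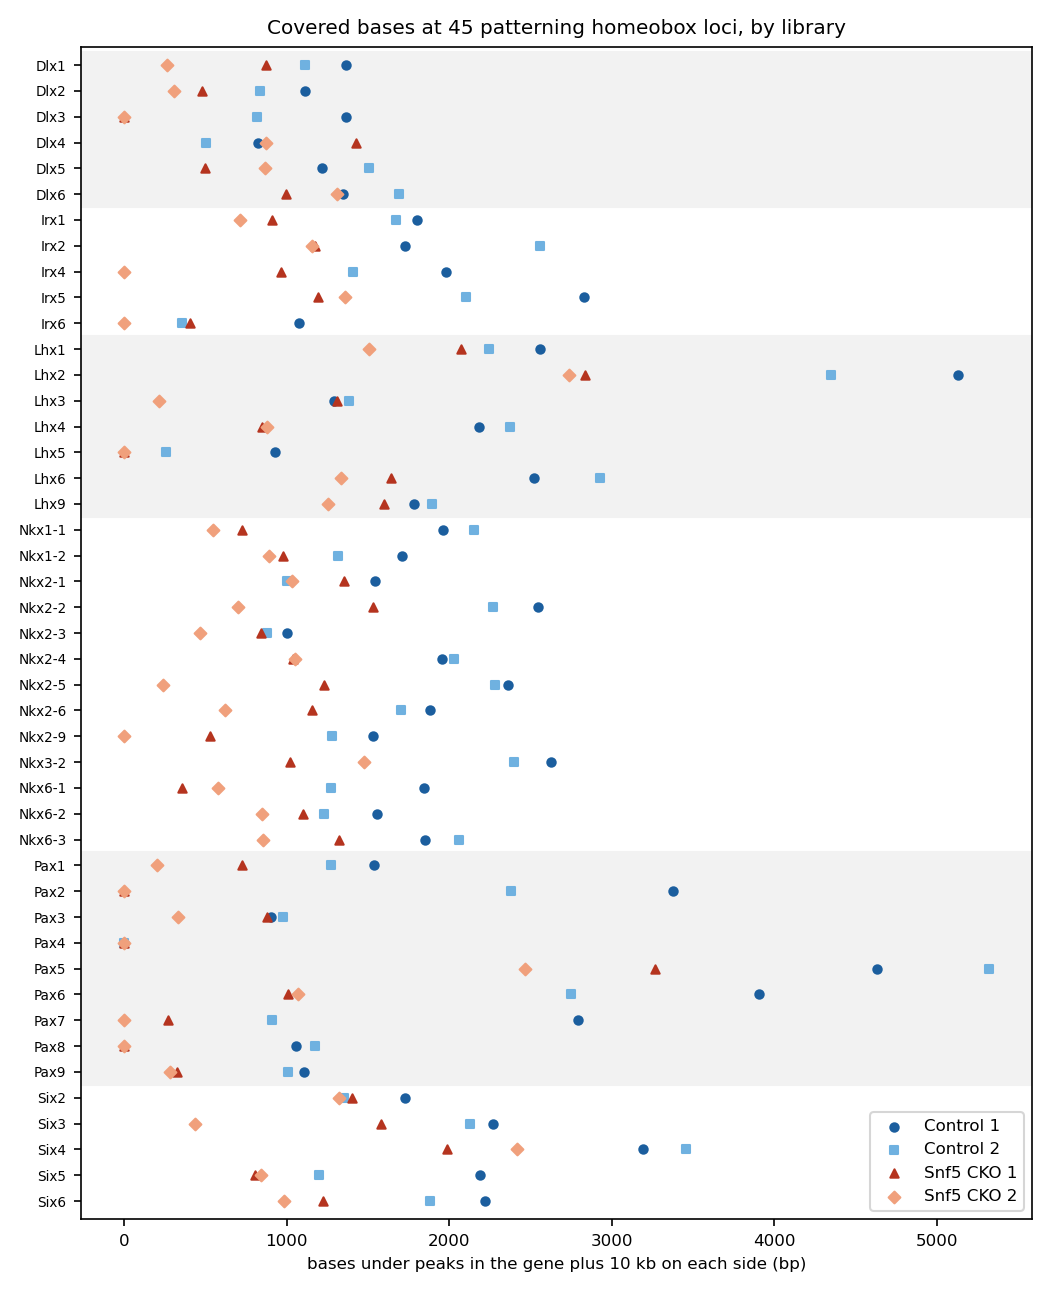
Bases under peaks in each member's gene plus 10 kb on either side (x axis, bp) for the 4 libraries and 45 of the 47 members, with genes grouped by family in shaded bands. In 39 of the loci drawn both Snf5 CKO points lie left of both control points, and Dlx4 shows the reverse.

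The Pax genes, which act in eye, kidney, muscle, thyroid and B cell development, had the lowest median log2 ratio of the 6 families at -1.56. All 8 Pax loci with control peaks were lower in Snf5 CKO. The family medians were -1.01 for Irx, -0.95 for Dlx, -0.95 for Nkx, -0.75 for the sine oculis family and -0.75 for Lhx. These medians rest on 5 to 14 loci each and were not compared by a test.

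Pax2, a regulator of kidney and urogenital tract development, had 3376 bp and 2379 bp under peaks in the controls and no peak in either Snf5 CKO library. Each control had 6 peaks at Pax2, spread from the upstream flank to the far end of the gene. The control folds there were between 2.14 and 3.46, so these were weak peaks. Pax8, a paralog of Pax2 that acts in thyroid, kidney and the reproductive tract, had 1059 and 1174 bp in the controls and was listed at 0 in both Snf5 CKO libraries. Its single control peak lay about 1 kb inside the higher-coordinate end and reached the gene-end window only in Control 2. Pax7, a marker of muscle stem cells, had 2792, 909, 271 and 0 bp in the order Control 1, Control 2, Snf5 CKO 1 and Snf5 CKO 2. The controls differed from each other by more than the gap between Control 2 and Snf5 CKO 1, although the groups did not overlap.

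Pax5, which commits progenitors to the B cell lineage, kept more of its peaks, with 4634, 5321, 3265 and 2467 bp. It retained 4 intragenic regions present in all 4 libraries and lost one in its flank, 3178 bp beyond the gene. Pax6, required for eye formation, had 3908, 2751, 1011 and 1072 bp. At both genes the Snf5 CKO values lay below both controls.

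In the Nkx family, whose members pattern heart, thyroid, lung, gut and ventral neural tube, 13 of 14 loci were lower in Snf5 CKO. Nkx2-2, a factor of ventral spinal cord and pancreatic islets, had 2546, 2271, 1534 and 700 bp. Nkx3-2, a regulator of cartilage and the axial skeleton, had 2625, 2397, 1023 and 1477 bp, and its start site stayed under a peak in all 4 libraries. The log2 ratio at Nkx3-2 was -0.95, but 0.58 in the lists with −log10 q of at least 3 and 1.72 in the lists of equal length. Nkx2-1, the thyroid and lung factor, had 1543, 1005, 1351 and 1033 bp, with Snf5 CKO values inside the control range.

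The Lhx genes include regulators of forebrain and of gonad formation, and 6 of 7 loci were lower. Lhx2, a forebrain, eye and hair follicle factor, had 5133 and 4351 bp in the controls and 2836 and 2736 bp in Snf5 CKO. It kept regions at both gene ends, in the gene and in the flank, while 2 regions, one intragenic and one flanking, were lost. Lhx6, which acts in cortical interneurons, had 2523, 2931, 1640 and 1333 bp. Lhx5 had 926, 258, 0 and 0 bp, so its locus was listed at 0 in both Snf5 CKO libraries.

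Among the homologs of Drosophila sine oculis, 5 of 6 loci were lower. Six4, a factor of muscle development, had 3194, 3457, 1989 and 2417 bp, and the groups did not overlap. Six2, which maintains nephron progenitors, had 1729, 1354, 1400 and 1320 bp, and the groups overlapped.

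Irx genes pattern heart, neural tube and limb, and 4 of 5 loci were lower. Irx5 had 2828, 2102, 1194 and 1357 bp and Irx2 had 1731, 2558, 1176 and 1155 bp, with no overlap between groups at either. The log2 ratio at Irx5 was -0.90, but 0.21 in both kinds of stricter list. Irx4 and Irx6 each had a peak in both controls and in Snf5 CKO 1 but none in Snf5 CKO 2.

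Dlx genes lie in linked pairs and act in forebrain, jaw and limb. Dlx3, a gene of placenta, hair and teeth, had 1368 and 819 bp in the controls and was listed at 0 in both Snf5 CKO libraries. Its linked partner Dlx4 had 826, 506, 1427 and 873 bp, the reverse order, although its log2 ratio of 0.71 turned to -0.09 with flanks of 20 kb. Dlx5 had 1218, 1509, 500 and 867 bp. Dlx6 had 1346, 1690, 996 and 1309 bp, where the closest control and Snf5 CKO values were 1346 and 1309 bp, and its log2 ratio of -0.37 turned to 0.21 in the lists of equal length.

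At the gene ends, open means that a library had a peak within 1 kb of either annotated end. By this count 39 and 36 members were open in the controls and 33 and 25 in Snf5 CKO. Of the 34 open in both controls, 22 were also open in both Snf5 CKO libraries, or kept (64.7%), where the background was 89.6% of 13421 genes. A further 5 were lost, that is open in neither Snf5 CKO library (background 4.84%), and 7 were open in 1 Snf5 CKO library. In 6 of those 7 the open library was Snf5 CKO 1, the one with the longer list, and over all genes this was so in 624 of 741. None was gained, where the background among genes without a gene-end peak in either control was 0.534%. Among members only Irx2, Lhx4, Pax4, Pax5, Pax9 and Six3 had no gene-end peak in either control, too few to set against that share. Without Snf5 CKO 1 the number lost was 11, since the 6 members open only in that Snf5 CKO library were added. Over all genes the same step adds 624 to the lost. Irx2, Lhx4, Pax4, Pax9 and Six3 had no gene-end peak in any library, and the other 8 members were open in other combinations.

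Control folds at the member ends were low. Among members whose mean control fold was under 4, 19 of 29 were kept (65.5%) and 4 lost (13.8%), and over all 3593 genes in that range the shares were 73.4% kept and 13.6% lost. The lost share was near the background of weak gene ends. In the lists with −log10 q of at least 3, 8 of 24 members were lost (33.3%, background 6.78%), and in the lists of equal length 8 of 27 (29.6%, background 4.92%). Both of these backgrounds hold genes of any control fold and were not matched to weak gene ends. Of the 5 with control folds of at least 4, 3 were kept (60%, background 95.6%). The median fold at open member ends was 3.0, 3.19, 3.6 and 3.6 in library order, and all open genes had medians of 4.61, 4.57, 5.22 and 5.14.

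The lost gene ends were those of Dlx1, Dlx3, Nkx1-1, Nkx6-3 and Pax7. Nkx1-1, a gene related to Drosophila slouch, had gene-end peaks of 1560 and 1460 bp in the controls and none in Snf5 CKO, while a region 8726 bp beyond the gene was kept in all 4 libraries. The printed Nkx1-1 promoter lies in the lost peak. Nkx6-3, known from the stomach and hindbrain, had gene-end peaks of 882 and 1075 bp in the controls and none in the window in Snf5 CKO. Most of the control length, 597 and 687 bp, lay in a merged region where Snf5 CKO 1 had a peak of 579 bp just outside the window and Snf5 CKO 2 had none. The rest, 285 and 388 bp, was in a region without a peak in either Snf5 CKO library, and a region in the flank was kept in all 4. Its whole locus held 1852, 2058, 1323 and 852 bp. Dlx1, a forebrain interneuron gene, also counts as lost by the window but not by the merged region. Its control peaks of 1366 and 1112 bp reached the window, and the Snf5 CKO peaks of 870 and 262 bp lay inside the same merged region but outside the window. At Pax7 the gene-end peaks were 290 and 312 bp in the controls and none in Snf5 CKO. At Dlx3 they were 873 and 819 bp in the controls and none in Snf5 CKO.

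By family, the 5 genes of the sine oculis family that were open in both controls were all kept, as were the 4 such Lhx genes. In the Nkx family 8 were kept and 2 lost, in Dlx 3 and 2, and in Irx 2 and 0. Of the 9 Pax genes only 3 were open in both controls, and none of these was kept. Pax7 was lost, whereas Pax1 and Pax3 were open in Snf5 CKO 1 and not in Snf5 CKO 2, which had the shortest list. Pax genes were open in 5, 4, 4 and 0 cases in library order. These counts are small and were not tested.

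Where gene ends were kept, peaks there were shorter in both Snf5 CKO libraries at 17 of 22 members and longer at 1, Dlx4. The backgrounds over 12030 kept genes were 77.3% and 1.27%, so the share of shortened ends was near the background. The median log2 ratio of peak length was -0.73 for members and -0.41 for all kept genes. These lengths count each peak that touches the window in full and leave out peaks of the same merged region beyond it. A region split into several peaks can therefore appear shorter than it is. All 8 kept Nkx ends and all 5 kept ends of the sine oculis family were shorter. At Six4, peaks touching the gene ends measured 1779 and 2053 bp in the controls and 592 and 694 bp in Snf5 CKO. All peaks of the merged region there measured 1779, 2053, 824 and 1324 bp, so part of the Six4 difference comes from the window. At Lhx2 they measured 1088, 1220, 1092 and 1154 bp, and the groups overlapped.

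Six5 and Dlx4 counted as kept, but their peaks differed in position between the groups. Six5, whose human counterpart lies at the myotonic dystrophy locus, had control peaks inside the gene, from 19094661 to 19096861 on chromosome 7. Both Snf5 CKO libraries instead had a peak of 594 and 635 bp from 19093784 to 19094418, just outside the lower-coordinate end, where neither control had one. The start site in the printed Six5 promoter lay between these positions. The control folds were 1.95 and 1.91 at the nearer region and the Snf5 CKO folds 4.28 and 3.21. Locus totals at Six5 were 2189, 1199, 804 and 843 bp. At Dlx4 both controls and Snf5 CKO 1 had a peak at the higher-coordinate end. Both Snf5 CKO libraries, and neither control, had a peak of 897 and 873 bp that ended 918 bp below the lower-coordinate end.

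**Figure D4:**
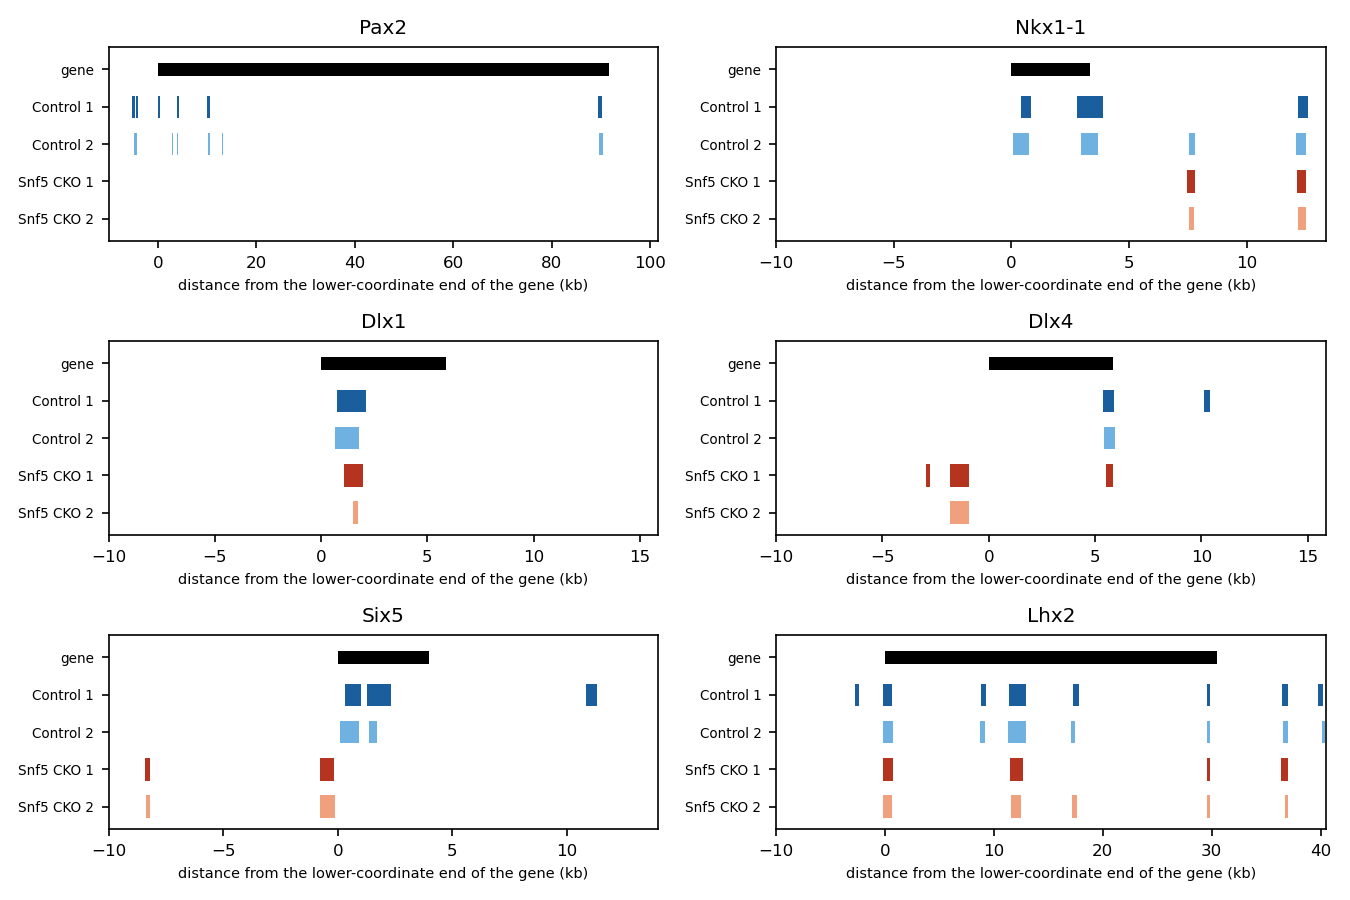
Peaks of each library (coloured bars) at 6 members, by distance from the lower-coordinate gene end in kb, with the gene drawn in black. Pax2 shows no peak in Snf5 CKO, Nkx1-1 keeps only flanking ones, Dlx1 keeps shorter peaks, Lhx2 keeps regions at both gene ends, and at Dlx4 and Six5 both Snf5 CKO libraries have a peak below the gene that the controls lack.

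Merging the peaks of the 4 libraries gave 171 regions in member loci of 66056 in all. Of these, 107 had a peak in both controls, and of these 34 were lost (31.8%, background 18%) and 49 kept (45.8%, background 69.8%). With mean control folds under 4, 36% of 89 member regions were lost against 32.7% of all such regions, and 38.2% were kept against 49.1%. Without Control 2 the number lost was 63. Gained regions were 5 of 171 (2.92%, background 5.08%), 1 at Dlx4, 1 at Nkx2-2 and 2 at Six5 among them. Without Snf5 CKO 2 the number gained was 15, and without Control 2 it was 9. In these counts, as in the 63 lost, fewer libraries decide the class, and no genome background was counted for them. Regions present only in controls numbered 73 and those only in Snf5 CKO 16, whereas over the genome these numbers were 18893 and 18765. Lost regions had a median merged width of 675 bp, kept ones 985 bp and gained ones 430 bp.

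By place, 14 lost regions lay in gene bodies, 12 in flanks and 9 at gene ends, counted once per member. Kept regions numbered 13, 12 and 24 in the same order, and no genome background by place was counted. Pax loci held 12 lost and 9 kept regions, and every other family held more kept than lost. In the Nkx loci 10 were lost and 13 kept. Of the bases covered in both controls in member loci, 36.3% were covered in all 4 libraries and 40.8% in no Snf5 CKO library, against 59.1% and 23.6% over the genome. These genome shares were not matched for weak peaks. In the other direction, 79.6% of the bases covered in both Snf5 CKO libraries were covered in all 4, close to 80.7% over the genome.

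At and downstream of annotated start sites, fewer members were covered by peaks in Snf5 CKO. Of the 33 members with a RefSeq start, 19 and 18 had one under a peak in the controls and 16 and 13 in Snf5 CKO. A member with several starts counted as covered if any of them was. One Lhx3 start was covered in both controls and in neither Snf5 CKO library. The other Lhx3 start was covered in both Snf5 CKO libraries, so Lhx3 counts as covered in all 4. Of the 17 covered in both controls, 10 stayed covered in all 4 libraries (58.8%, background 89.6% of 10298) and 3 were lost (17.6%, background 4.33%), which are the printed Nkx1-1, Pax2 and Pax7 starts. These backgrounds were not matched for weak peaks. At gene ends with control folds under 4, 13.6% of all genes were lost. At 500 bp downstream of the most upstream start, peaks lay over 54.5% and 42.4% of members in the controls and over 21.2% and 24.2% in Snf5 CKO. Over all genes the values there were 43.5%, 41.7%, 23.9% and 22.5%. At 1 kb downstream, controls still had 24.2% and 18.2% of members covered, and all genes 9.43% and 9.25%. In Snf5 CKO the members there stood at 12.1% and 0%, and all genes at 4.24% and 3.92%. Upstream the members did not show this order throughout. At 750 bp upstream, 6.06% and 6.06% of members were covered in the controls and 12.1% and 9.09% in Snf5 CKO, which are few genes. All genes there stood at 9.32% and 9.13% in the controls and 5.06% in Snf5 CKO 1.

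**Figure D5:**
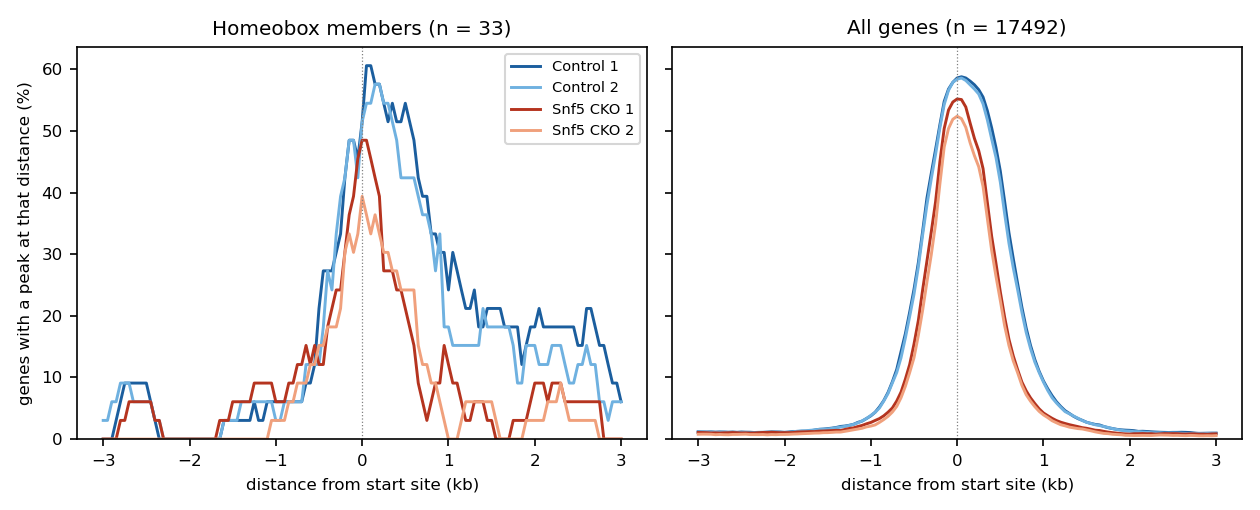
Share of genes with a peak at each distance from the most upstream RefSeq start site (x axis, kb, positive downstream; y axis, percent of genes) for 33 members (left) and 17492 genes (right), 1 line per library. At 500 bp and at 1 kb downstream both control lines lie above both Snf5 CKO lines in each panel, and at 1 kb the member control lines stand at 24.2% and 18.2%. At 750 bp upstream both member Snf5 CKO lines lie above both member control lines.

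Other patterning homeobox genes and partners were counted for comparison. Of 71 other patterning homeobox genes outside the Hox clusters and these families, 60 were open at a gene end in both controls. Of these, 46 were kept (76.7%) and 6 lost, where the backgrounds over all genes were 89.6% and 4.84%. Loci of this list with control peaks were lower in Snf5 CKO in 56 of 68 cases (82.4%), with a median log2 ratio of -0.85. In the 6 families these values were 41 of 46 and -0.95, and this difference was not tested. The list also holds Nanog, a pluripotency gene, which was its 1 locus higher in Snf5 CKO (1069, 458, 2244 and 1077 bp). Among the partners, 2 of 6 Eya and Dach loci, 6 of 9 loci of LIM domain cofactors and 1 of 6 of paired-domain and Groucho partners were lower. The background over all genes was 68.3%. The LIM cofactor share (66.7%) was near it and the shares of the other partners were below it. The median log2 ratios of these partner lists were -0.49, -0.34 and -0.04.

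Supporting cell and stroma markers were mostly lower in Snf5 CKO, and endothelium and blood markers were not. For comparison, 68.3% of all loci with control peaks were lower. The 10 supporting cell marker loci held 19607 and 18114 bp in the controls and 10607 and 10115 bp in Snf5 CKO, and 9 of 10 were lower. The 8 stroma marker loci held 7843 and 6487 bp against 3158 and 2893 bp, with 5 of 5 lower among those with control peaks and Col3a1 at 0 in all libraries. Dcn and Lum, which had a peak in at most 1 control, covered more bases in both Snf5 CKO libraries than in either control. The 8 endothelium and blood loci held 5776 and 4385 bp against 4353 and 3036 bp, with 1 of 5 lower, 1 (Tek) higher and 3 overlapping, and Ptprc, Hbb-bs and Csf1r at 0 in all libraries. The 10 germ cell marker loci held 17877 and 17907 bp against 16995 and 13234 bp, with 6 lower and 2 higher. Fewer cells of a type and less accessible DNA per cell cannot be told apart in sorted bulk material, and the part of somatic cells in the homeobox result was not tested.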

How the data were processed

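ATAC-seq peaks were analysed in 2 Control and 2 Snf5 CKO libraries, grouped by the genotype label. The authors deposited 1 broad peak list per library; in each deposited list a peak has a position, a score, a fold enrichment, a −log10 p and a −log10 q from the authors' peak caller. Per the submitters' processing notes, MACS2 2.2.7.1, Bowtie2 2.4.2, Trim Galore 0.6.5, Picard 2.25.2 and SAMtools 1.10 were used with build mm10. The sources used here give no calling threshold, duplicate handling or shift of read ends. The deposited lists hold no counts, so depth is unknown and a missing peak does not show closed chromatin.

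Genes came from the RefSeq table of GRCm38.p6, in which gene ends carry no strand, and start sites and promoter sequences from the RefSeq promoter table. A peak counted with an overlap of at least 1 bp. Gene ends were taken with 1 kb on either side and loci with 10 kb. Kept means a peak in all 4 libraries, lost a peak in both controls and in neither Snf5 CKO library, and gained the reverse. Fold and −log10 q served only to describe or filter peaks. Totals were compared by exact two-sided permutation tests, and lists by counts and medians beside all genes. Named members were all those lost or gained, the 2 largest loci of each family, and the 3 most negative and 3 most positive loci; others were chosen after their values were seen, and 2 members enter the counts but are not reported here by name. The members and lists were chosen with earlier results of these data known. Splits by control fold and by covered length were added after seeing the data. Alternatives were other windows, flanks and overlaps, stricter or equal-length lists, each library left out and a replicate block. Scripts (Python 3.11.15, pandas 2.3.3, scipy 1.17.1) were tested on simulated data.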

Additional observations from a re-analysis of the deposited data

How the results depend on the processing

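The log2 ratio of total covered bases over the member loci kept its direction under every alternative run, from -1.23 to -0.841 with each library left out in turn. The labels share replicate numbers but do not say that they mark a litter or day. Deviations of same-numbered libraries correlated at -0.0138 over 12030 kept genes, so the numbers were not taken to pair them. With a replicate block the ratio was -1.02 (exact permutation p = 0.5, the smallest that pairing allows), and 43 loci were lower. Peaks of −log10 q of at least 3 gave 13 kept, 8 lost and 1 gained gene ends, 8 shorter ends with a median log2 ratio of -0.291, 21 lower and 2 higher loci, and 25 kept and 15 lost regions. Lists of equal length (28625 peaks) gave 8 lost and 3 gained ends, a median of -0.611 at the ends, 25 lower and 3 higher loci, and 16 lost regions. Windows of 500 bp with flanks of 5 kb gave 0 longer ends and 2 gained regions, and windows of 2 kb with flanks of 20 kb gave 0 higher loci. An overlap of at least 200 bp gave 0 longer ends. Under the stricter and equal-length lists, only lost ends and lower and higher loci had counts over all genes beside them. The kept, gained and shorter ends and the regions had none there, and neither had the counts with changed windows or overlap. Windows at RefSeq starts, added after seeing the data, gave 3 lost, and the 5 members with control folds of at least 4, also split off after seeing the data, gave 3 kept. With each library left out in turn, lost ends ranged from 6 to 11, gained ends from 0 to 1, longer ends from 1 to 4, their median from -0.821 to -0.551, higher loci from 1 to 2, lost regions from 40 to 63 and gained regions from 6 to 15. Fewer libraries have to hold or lack a peak in those counts, and no background over all genes was counted under those settings.

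Among loci whose groups did not overlap as reported, Nkx2-3 reversed (0.17 with flanks of 5 kb and 0.548 in lists of equal length). So did Dlx4 (-0.0922 with flanks of 20 kb), Irx5 (0.209 in both stricter lists), Nkx3-2 (0.58 and 1.72) and Dlx6 (0.215 in lists of equal length). The causes were not tested. Of the 46 members with control peaks, 45 had a negative ratio as reported, 39 with −log10 q of at least 3 and 37 in lists of equal length. Positive ratios numbered 5 and 7 in those stricter lists. Sign changes at Irx6, Lhx3, Nkx2-1 and Six2, whose groups overlapped as reported, are not among the reversed loci named. With 2 libraries a group the exact permutation test cannot go below 0.33. Unknown depth limits every absence: a missing peak may be an open site below the calling threshold.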
